A study of Rattus norvegicus with 3 samples.

Results

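Of 5347 peaks called with an antibody to estrogen receptor alpha (ERα) in chromatin of rat male germ cells, 703 also touched a peak called with an antibody to estrogen receptor beta (ERβ) and a peak of the mock immunoprecipitation. These loci, called in all 3 libraries, were chosen by position alone: an ERα peak counted when it overlapped by 1 bp or more at least 1 peak of each other list. They make up 13.1% of the ERα list (95% exact Clopper-Pearson interval 12.3 to 14.1). Because that overlap chose them, the overlap itself is a description and was not tested. All 3 libraries came from germ cells of Holtzman rats aged 75 to 90 days, and the labels give no treatment. Chromatin was precipitated with anti-ERα, with anti-ERβ or, for the mock, with anti-rabbit IgG. Each antibody has 1 library, so no value here has a replicate error, nothing was tested between antibodies, and intervals cover counting error over loci only. The germ cells were enriched from whole testes by lysing interstitial cells in water and sieving out Sertoli cells. Peak lists hold no marker that could check their purity.

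ERα and ERβ are nuclear receptors. On binding an estrogen they pair up, attach to DNA at estrogen response elements or through other transcription factors, and change the transcription of nearby genes. Both have been described in the testis, where estrogen signalling takes part in the making of sperm. Chromatin immunoprecipitation followed by sequencing finds such sites as places where DNA fragments pile up after an antibody has pulled down the receptor. A mock immunoprecipitation uses an immunoglobulin directed at no nuclear receptor, so a peak in its list is a place where fragments piled up without a receptor antibody. A locus called in all 3 libraries is therefore one where the receptor signal has to be read against a mock signal at the same place.

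Each list gives a position and the authors' score for every peak, a number with no unit in the files. Read depth is unknown, and it is also unknown whether the mock library served as control in calling the receptor peaks, so scores of different lists are set side by side and not tested. The genome build is not given in the sources used here. The scaffold names are those of the rat assembly Rnor_6.0, and positions are written as in the lists with starts counted from 1. The gene and promoter tables at hand belong to another assembly, so the genes and the sequence at these loci were not analysed here.

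The 703 ERα peaks touched 716 ERβ peaks and 733 mock peaks. A single ERβ peak lay at 652 of the loci, 2 at 47 and 3 at 4. A single mock peak lay at 641, 2 at 57 and 3 at 5. At 521 loci (74.1%) the match was one to one, with 1 peak of each list and none of them touching a further ERα peak. A base covered by all 3 lists existed at 691 loci, and at the other 12 the ERβ and mock peaks touched different parts of the ERα peak. Seen from the other lists, 713 ERβ peaks (5.60% of the list) and 727 mock peaks (4.62%) touched both remaining lists. The lists differ in length, the ERα list with 5347 peaks, the ERβ list with 12728 and the mock list with 15750, so 1 locus is a smaller share of the longer ones. Joining all peaks that touch directly or in a chain turned the 703 into 666 joined loci, of which 504 held 1 peak of each list.

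The rule used the positions of the peaks, so how closely they match is largely set by the choice of loci and is given as a description. At the one-to-one loci the midpoints of the ERα and ERβ peaks lay a median of 70.5 bp apart, those of ERα and mock 81.0 bp, and those of ERβ and mock 73.5 bp. The 2 receptor peaks shared a median of 76.9% of their joint span, and the ERα and mock peaks 75.0%. No locus had the same start and end in any pair of lists.

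Members near the edge of the rule were few. The shortest overlaps were 2 bp at chromosome 14, 22049694 to 22050614, with ERβ, 2 bp at chromosome 17, 48442227 to 48442820, with mock, and 4 bp at chromosome 9, 8880550 to 8881253, with ERβ. Their ERα scores were 70.35, 34.97 and 59.65. In all, 18 members had an overlap shorter than 100 bp with 1 of the lists, while the median of the shorter overlap was 556 bp. Just outside stood chromosome 5 at 231190 to 232314 (ERα score 89.68), which lay directly beside an ERβ peak with no base between them. Next were chromosome 2 at 156211089 to 156211669 (score 43.15), 1 bp from a mock peak, and chromosome 2 at 153161646 to 153162317 (score 38.44), 9 bp from one. Of the 4644 ERα peaks outside the set, 24 missed it by at most 100 bp and 196 by at most 1 kb.

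The loci held nearly the whole upper end of every list. Their median ERα score was 96.7 (order-statistic interval 89.1 to 105), and scores ran from 34.73 to 3206. ERα peaks that touched ERβ but not mock had a median score of 45.3 (n = 231), those that touched mock but not ERβ 42.4 (n = 259), and those that touched neither 38.5 (n = 4154). The 100 ERα peaks of highest score were all members, as were all 100 of highest score in the mock list and 99 of 100 in the ERβ list. Of peaks with a score of 100 or more, 339 of 359 in the ERα list, 328 of 341 in the ERβ list and 294 of 308 in the mock list belonged to these loci. The rule used no score, but a stronger signal is called more readily in any library, so score and membership are not independent.

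The share of ERα peaks that were members went from a few percent to most between scores of 50 and 100. Of ERα peaks scoring below 40, 49 of 2703 (1.81%) were members, and of those from 40 to below 50, 59 of 1608 (3.67%). The share was 165 of 549 (30.1%, exact interval 26.2 to 34.1) from 50 to below 75 and 91 of 128 (71.1%, 62.4 to 78.8) from 75 to below 100. It was 171 of 190 (90.0%) from 100 to below 200, and 95 of 96 (99.0%) from 200 to below 500. All 73 ERα peaks at 500 or more were members (exact interval 95.1 to 100). That interval covers counting error only and takes the peaks as independent, which clustered peaks are not. The 1 peak above 200 outside the set, singled out after its value was seen, lay on scaffold KL568245.1 at 11 to 428 with a score of 227.2, and neither other list had a peak on that scaffold.

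**Figure D1:**
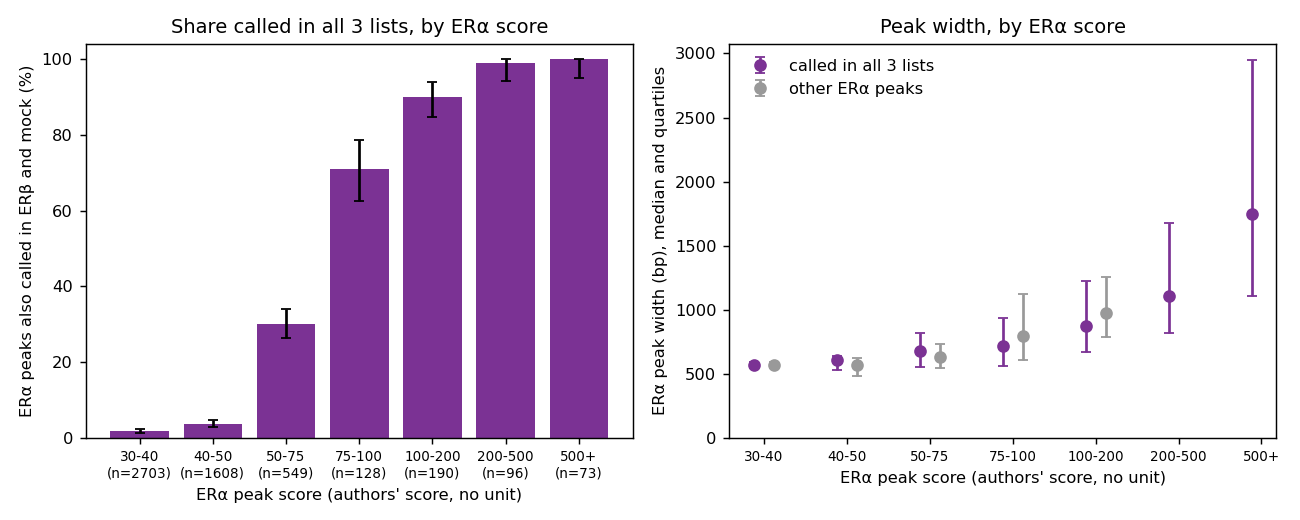
Left, the percentage of ERα peaks that were also called in the ERβ and mock lists (y axis) in 7 bands of the authors' ERα score (x axis), with 95% exact intervals. Right, ERα peak width in bp (median, bars to the quartiles) in the same bands, for members and for other ERα peaks where a group held 5 or more. The share climbs from 1.81% to 100%, while members and other peaks of like score have similar widths.

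Members were wider than other ERα peaks, and width went with score, with a Spearman's rho of 0.638 over the 703 loci. Their median width was 754 bp (interval 721 to 779), against 590 bp for peaks touching ERβ alone, 577 bp for those touching mock alone and 570 bp for those touching neither. A width of 1000 bp or more was seen in 214 members (30.4%) and in 10 peaks touching neither list (0.241%). A wider peak touches others more readily, so width is not independent of the rule. Within score bands members were not wider throughout: from 50 to below 75 members had a median width of 673 bp and other peaks 629 bp, and from 75 to below 100 the members were the narrower, at 715 against 796 bp (91 and 37 peaks). The peaks at these loci were also wide in the other lists, with medians of 794 bp for ERβ and 732 bp for mock, while the rest of those lists had medians of 555 and 566 bp.

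The widest locus lay on the mitochondrial genome, a small circular genome present in many copies per cell. It spanned positions 1 to 10449, and the score was 3100 in each list. The second mitochondrial locus, at 10737 to 11199, had an ERα score of 548, with ERβ at 204 and mock at 291. ERα was thus 1.89 times the mock score there, while ERβ was 0.700 times the mock score. The next widest loci lay on chromosome 1, with 6549 bp at 56026089 to 56032637 and 6130 bp at 55682093 to 55688222. The latter had an ERα score of 1646, with ERβ at 1845 and mock at 1269.

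At the 10 loci with the highest ERα score, the receptor and mock scores differed by at most 1.65 times. The first, chromosome 1 at 55701024 to 55706505, reached 3206 with ERα, 3180 with ERβ and 2651 in the mock. The exact value 3100 stood in at least 1 list at 3 loci and in all lists at 2 of them, and equal scores there were not taken to mean equal enrichment. Chromosome 1 at 55728976 to 55734074 had an ERα score of 2134, with ERβ at 2017 and mock at 1590. Chromosome 1 at 180718813 to 180719809 had the largest excess of ERα among the 10, with 1907 against 1157 for mock, and its ERβ score was 1341. In the same cluster, 180971091 to 180973486 reached 1740 in ERα, 1901 in ERβ and 1449 in mock. Chromosome 1 at 55713276 to 55716736 had the largest excess of ERβ among the 10, with 2032 against 1288 for mock, and its ERα score was 1733. Chromosome 1 at 56026089 to 56032637 was the only one of the 10 where mock exceeded ERα, at 2297 against 2121, with ERβ at 2310.

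Over all 703 loci the receptor scores were somewhat higher than the mock score, and the loci spread widely around that. The ERα score was above mock at 446 loci, below it at 254 and equal at 3, so it was higher at 63.4% (exact interval 59.8 to 67.0). The median ratio was 1.16, or 0.21 on the log2 scale (interval 0.13 to 0.27). The ERβ score was above mock at 418 loci, below at 283 and equal at 2, which is 59.5% (55.7 to 63.1), with a median ratio of 1.12, or 0.17 on the log2 scale (0.09 to 0.22). Between the receptors ERα was higher at 366 loci and lower at 334, with a median ratio of 1.03. At the 521 one-to-one loci ERα was higher than ERβ at 289 and lower at 229 (55.5% higher, 51.1 to 59.8), with a median ratio of 1.07. Among the 666 joined loci it was higher at 369 (55.4%). Of all 703 loci, the mock score was the lowest of the 3 at 316 (45.0%), ERβ at 216 and ERα at 169. The highest was ERα at 280 loci, ERβ at 267 and mock at 152. These loci are clustered and not independent, and both receptor ratios use the same mock list.

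The 3 scores at a locus were mostly of similar size. The highest was a median of 1.68 times the lowest, and the 3 lay within a factor of 2 at 471 loci (67.0%). All scores reached 100 at 230 loci and 1000 at 20, and all were below 50 at 29. Spearman's rho over the 703 loci was 0.733 between ERα and ERβ, 0.722 between ERα and mock and 0.743 between ERβ and mock. This is a description: the loci share 1 genome, and each list rests on 1 library. The coefficient between the receptors lay between the others.

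**Figure D2:**
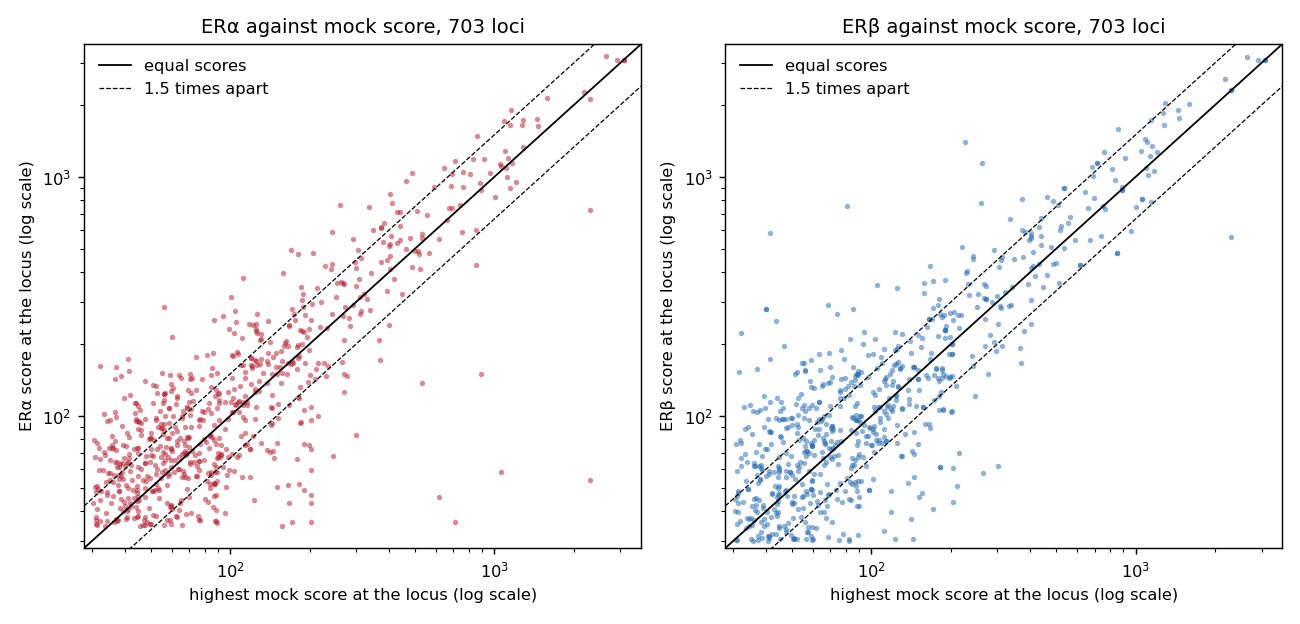
Score of ERα (left) and ERβ (right) on the y axis against the highest mock score at the same locus on the x axis, both log scales, 1 point for each of 703 loci. The solid line marks equal scores and the dashed lines 1.5 times apart; 408 points of the ERα panel and 420 of the ERβ panel lie between the dashed lines.

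A difference of 1.5 times or more was taken as a large one. ERα was at least 1.5 times higher than mock at 196 loci (27.9%) and at least 1.5 times lower at 99 (14.1%). Over all 962 ERα peaks that touched a mock peak these shares were 24.9% and 13.5%, so the members, which are most of them, stood near that background. At the 521 one-to-one loci ERα was at least 1.5 times higher than mock at 148 (28.4%) and lower at 50 (9.60%). Over all members ERβ was at least 1.5 times higher than mock at 188 loci (26.7%) and lower at 95 (13.5%). The shares were 17.4% and 14.9% of the 1191 ERβ peaks that touched mock, counted there by ERβ peak. These measures are unlike: a member takes its highest touching ERβ score, and 1 ERβ peak can count at several members. Between the receptors, ERα was at least 1.5 times higher than ERβ at 136 loci (19.3%) and lower at 124 (17.6%), beside 18.7% and 16.8% of the 934 ERα peaks that touched ERβ. The excess of higher over lower calls holds for scores taken at face value. The 230 loci with all scores at 100 or more had a median log2 ratio of 0.24 for ERα and 0.20 for ERβ. With ratios centred on these medians, 16.5% of loci were higher and 21.6% lower for ERα, and 17.8% higher and 22.2% lower for ERβ. Higher calls made up 66.4% of all large ERα differences as deposited and 43.3% after centring, and 66.4% and 44.5% of the ERβ ones. The centring values lie slightly above the medians of all loci, so a share near or below even is set by the centring itself and says nothing about the loci.

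The excess over mock did not go steadily with the strength of the locus. Loci were ranked and divided into 4 groups of like size by the geometric mean of their 3 scores, which weights the lists equally. From the lowest group to the highest, ERβ was above mock at 50%, 64.2%, 54.3% and 69.3% of loci, with median log2 ratios of -0.0014, 0.25, 0.06 and 0.27. For ERα the shares were 64.2%, 57.4%, 61.1% and 71.0%, with medians of 0.18, 0.22, 0.17 and 0.25. Each share covers 175 or 176 loci, and both receptors had their highest share in the group of highest scores. The scores at these loci end at different values, with a lowest score of 34.73 for ERα, 30.01 for ERβ and 30.37 for mock peaks. How far this shaped the shares of the lowest group was not tested. The share above mock was higher at wider loci for both receptors. ERα was above mock at 102 of 200 loci narrower than 600 bp, at 182 of 289 from 600 to below 1000 bp (63.0%) and at 162 of 214 loci of 1000 bp or more (75.7%, 69.4 to 81.3). ERβ was above mock at 110 of 200 (55.0%), 168 of 289 (58.1%) and 140 of 214 (65.4%, 58.6 to 71.8) of the same groups. The width is that of the ERα peak and goes with the ERα score, so it is not independent of the ERα ratio. Narrow loci also include lesser ERα peaks that share a mock peak with a stronger ERα peak. Mock was 3 times ERα or more at 19 of all 703 loci, of which 9 were narrower than 600 bp. The width groups were not recomputed for one-to-one loci. No trend over these groups was tested.

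The loci with the highest ERα score relative to mock were moderate peaks over a low mock peak. Among members with a score of at least 100 in either list, the highest ratio stood at chromosome 1, 55658000 to 55659036, with 285 for ERα, 156 for ERβ and 56.1 for mock, a ratio of 5.08. Chromosome 1 at 54954445 to 54956995 followed with ERα at 161, ERβ at 222 and mock at 32.2, so both receptors were well above mock there, ERα by 5.01 times and ERβ by 6.90 times. Chromosome 9 at 8625517 to 8626740 had an ERα score of 160, with ERβ at 56.5 and mock at 36.9. Chromosome 1 at 180886012 to 180886511 had ERα at 173, ERβ at 86.4 and mock at 41.0. Chromosome 1 at 54146723 to 54148045 had ERα at 143, ERβ at 70.8 and mock at 36.7. At all 5, ERβ was also above mock, by 1.53 to 6.90 times, and the mock scores lay between 32.2 and 56.1. Both ratios use the same mock score, and the choice favoured a low one, so the ERβ excess is not independent of the choice. All 5 kept their ratios when touching peaks were joined.

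At the loci with the lowest ERα score relative to mock, 1 mock peak covered several ERα peaks, and the member was the lesser of them. Chromosome 1 at 56023527 to 56024063 scored 54.1 for ERα and 2297 for mock, a mock excess of 42.5 times, but the same mock peak also touched the ERα peak of 2121 named above. Joined, that locus spanned 9151 bp with 3 ERα peaks, 2 ERβ peaks and 1 mock peak, and its highest ERα score was 0.923 times mock. Chromosome 1 at 55737617 to 55738188 had an ERα score of 36.1, with ERβ at 1147 and mock at 712, and the joined locus had an ERα score of 1163, or 1.63 times mock. Chromosome 1 at 181078983 to 181079580 went from 0.0550 to 1.04 times mock on joining, and chromosome 16 at 21818649 to 21819318 from 0.0744 to 0.890 times. Chromosome 20 at 40871241 to 40872486 went from 0.168 to 0.990 times. All 5 lowest ERα ratios thus lay between 0.890 and 1.63 once touching peaks were read as 1 locus.

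The highest ERβ ratios also came down on joining, at 4 of 5 loci. Chromosome 17 at 11807503 to 11808312 scored 585 for ERβ, 41.3 for mock and 69.2 for ERα, an ERβ ratio of 14.2, and the joined locus had a ratio of 1.46. Chromosome 1 at 99095924 to 99096615 scored 758 for ERβ, 80.7 for mock and 44.8 for ERα, and its ratio went from 9.40 to 1.01. Neighbouring members on chromosome 7, at 2174877 to 2175549 and at 2175600 to 2176200, shared 1 ERβ peak of 282 and 1 mock peak of 40.1. Their ratio of 7.03 became 3.31 on joining, with 149 for ERα and 85.0 for mock. Only chromosome 1 at 54954445 to 54956995 kept its ratio of 6.90.

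Of the 5 lowest ERβ ratios, 2 were one-to-one loci that joining left as they were. Chromosome 1 at 669204 to 670294 scored 30.7 for ERβ, 91.8 for ERα and 143 for mock, so mock was 4.67 times ERβ. That ERβ score lay near 30.01, the lowest in its list. Scaffold KL568461.1 at 10311 to 11440 scored 57.8 for ERβ, 169 for ERα and 264 for mock, a factor of 4.58. Chromosome 14 at 22035890 to 22036907 scored 43.5 for ERβ, 72.5 for ERα and 203 for mock, and stayed lower for both receptors on joining, at 0.297 times mock for ERβ and 0.357 for ERα. Chromosome 16 at 21778945 to 21779671 went from 0.206 to 0.806 times mock, and chromosome 13 at 33476535 to 33477108 from 0.237 to 1.65 times.

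Wide differences between lists stood more often at loci whose match was not one to one. The highest score was 3 times the lowest or more at 30 of 521 one-to-one loci (5.76%) and at 46 of the other 182 (25.3%). Among the 666 joined loci it was so at 43 (6.46%), and the largest spread was 6.90 times. ERα was 3 times mock or more at 10 joined loci, and mock was 3 times ERα or more at 1, which lay on chromosome 9 at 8880550 to 8882742 with 59.7 for ERα, 201 for ERβ and 202 for mock. For ERβ both counts were 10. The middle of the distribution hardly moved on joining: the median log2 ratio to mock was 0.22 for ERα and 0.13 for ERβ.

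The loci were clustered along chromosomes. A cluster was taken as 3 or more members in a row with no more than 100 kb between neighbours. There were 62 clusters with 563 members, or 80.1% (exact interval 76.9 to 83.0), and they covered 6020 kb in all, with spans of 3.22 to 840 kb and a median of 64.8 kb. Outside clusters lay 68 members in 34 pairs and 72 single members. The median gap between neighbouring members was 6579 bp, and 373 of 675 gaps (55.3%) were at most 10 kb. Neighbouring ERα peaks that touched neither other list lay a median of 328 kb apart.

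Closeness to other ERα peaks, which the rule did not use, was frequent even for members of low score. A further ERα peak of any kind lay within 10 kb of 588 members (83.6%), of 135 of the 231 peaks touching ERβ alone (58.4%), of 136 of the 259 touching mock alone (52.5%) and of 406 of the 4154 touching neither (9.77%). Among ERα peaks scoring below 40, 71.4% of the 49 members had such a neighbour and 9.53% of the 2654 other peaks. From 50 to below 75 the shares were 80.6% of 165 and 39.1% of 384. From 100 to below 200 they came close, at 85.4% of 171 and 78.9% of 19. Members that touch 1 and the same ERβ or mock peak count as neighbours of each other, and these shares were not tested.

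The 7 chromosomes with most members, 1, 2, 7, 9, 14, 16 and 17, held 554 of the 703 (78.8%) and 49.6% of the ERα list. Chromosome 1 alone carried 229, which is 37.5% of its 611 ERα peaks (exact interval 33.6 to 41.4). By number chromosome 16 followed with 73 of 272 (26.8%), chromosome 7 with 58 of 327 (17.7%) and chromosome 17 with 52 of 210 (24.8%). Chromosome 2 had more ERα peaks than any other, 628, but 51 members (8.12%). At the other end, chromosome 11 had 1 member among 221 ERα peaks and chromosome 10 had 1 among 89. Chromosome 12, which has few peaks, had 15 among 43 (34.9%, 21.0 to 50.9). Of the 34 chromosomes and scaffolds in the ERα list, 28 held a member.

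**Figure D3:**
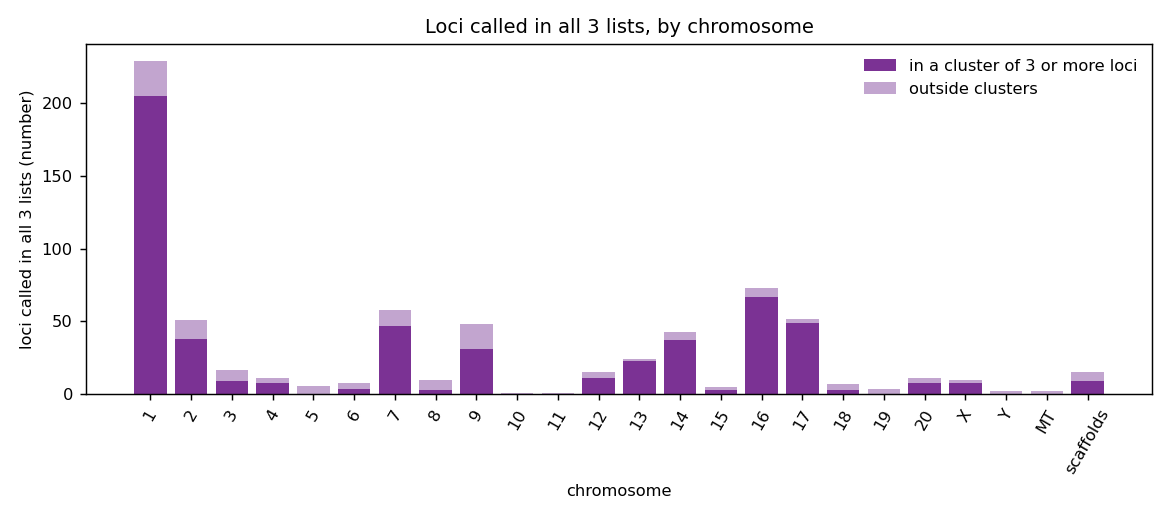
Number of loci called in all 3 lists (y axis) on each chromosome, with unplaced scaffolds together (x axis), split into loci inside clusters of 3 or more and loci outside. Chromosome 1 holds 229 loci, of which 205 lie in 15 clusters, and chromosomes 10 and 11 hold 1 each.

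The largest cluster lay on chromosome 1 from 180492424 to 181332495, with 69 members over 840 kb. Its span held 76 ERα, 81 ERβ and 78 mock peaks, so 90.8% of the ERα peaks there were members. A span runs from its first to its last member, so a high share is partly built in. Over all cluster spans the share was 75.6%. All scores reached 100 at 47 of the 69 loci. The ERα scores ran from 46.14 to 1907, the ERβ scores from 31.5 to 1901 and the mock scores from 35.95 to 1459. ERα was above mock at 45 of the 69 loci, with a median log2 ratio of 0.25, and ERβ at 33, with a median of -0.05.

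The second cluster, on chromosome 16 from 21675920 to 22159673, held 64 members over 484 kb. Its highest scores were 1204 for ERα, 1226 for ERβ and 1130 for mock. ERα was above mock at 37 loci and ERβ at 33. The third, on chromosome 1 from 55638314 to 55771375, held 27 members in 133 kb, and 32.9% of its length lay in member peaks. Both receptors were above mock at most of its loci, ERα at 23 and ERβ at 22 of 27, with median log2 ratios of 0.49 and 0.58. The fourth, on chromosome 13 from 33474770 to 33814193, held 23 members, with ERα above mock at 15 and ERβ at 17. The fifth, on chromosome 1 from 99033028 to 99097858, held 19 members in 64.8 kb, 29.3 for every 100 kb. ERα was above mock at 12 of its loci and ERβ at 11, with medians of 0.09 and 0.01. These 5 clusters held 202 members (28.7%).

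**Figure D4:**
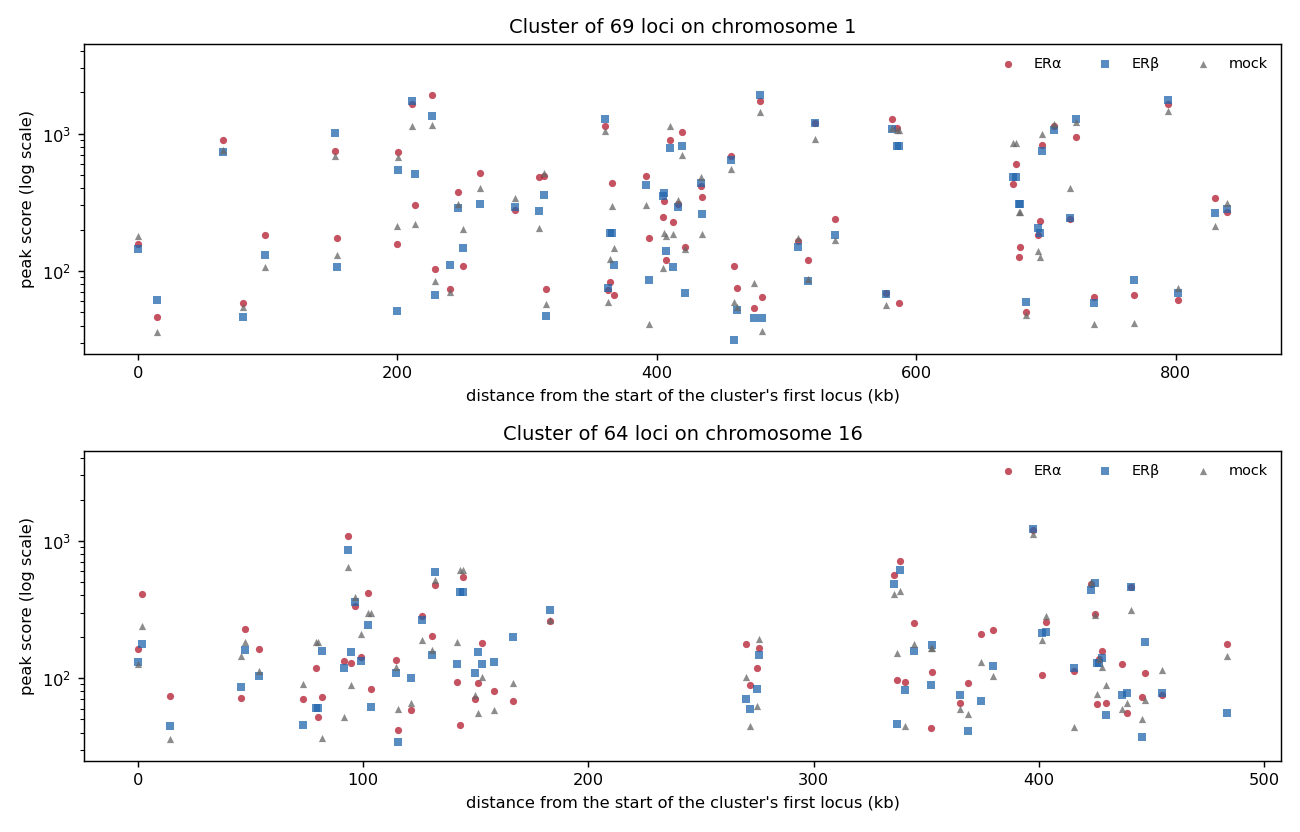
Authors' peak score (y axis, log scale) in the ERα, ERβ and mock lists against distance in kb from the start of the cluster's first locus (x axis), for the clusters of 69 loci on chromosome 1 and 64 loci on chromosome 16. All 3 lists have points at each locus, and the highest points of the first cluster reach 1907, 1901 and 1459.

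The 17 clusters with 10 or more members held 358 loci and differed among themselves. Their median log2 ratio of ERα to mock ranged from -0.13 to 0.49 and was above 0 in 14, and that of ERβ to mock ranged from -0.16 to 0.76 and was above 0 in 13. The lowest ERα median belonged to 17 loci on chromosome 7 from 22260822 to 22414143, where ERβ had a median of 0.25. The highest ERβ median belonged to 11 loci on chromosome 1 from 54042121 to 54196617, where ERβ was above mock at 10 of 11 and ERα at 8. Both medians were below 0 in 11 loci on chromosome 1 from 39258451 to 39470156, with -0.07 for ERα and -0.16 for ERβ. Differences between clusters were not tested. Inside clusters ERα was above mock at 62.7% of 563 members and outside at 66.4% of 140, with exact intervals of 58.6 to 66.7 and 58.0 to 74.2.

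**Figure D5:**
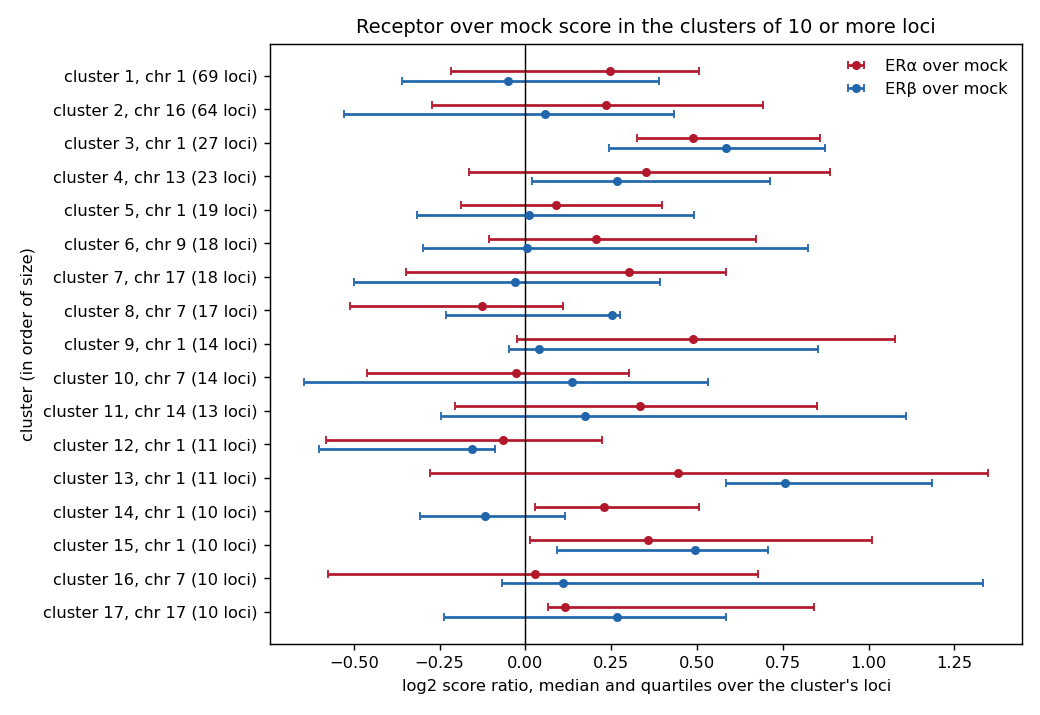
Median log2 ratio of ERα to mock and of ERβ to mock score (x axis, bars to the quartiles over loci) in the 17 clusters of 10 or more loci (y axis, in order of size). The ERα median is above 0 in 14 clusters and the ERβ median in 13, with ERα from -0.13 to 0.49 and ERβ from -0.16 to 0.76.

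The sex chromosomes held few members, in short groups. Chromosome X had 10 among its 27 ERα peaks (37.0%, exact interval 19.4 to 57.6). A group of 4 lay from 36446598 to 36470409, and its strongest locus, at 36469397 to 36470409, had an ERα score of 588, with ERβ at 455 and mock at 243. ERβ was above mock at all 4 of these loci and ERα at 3. Another 4 lay from 73074561 to 73092609, where the strongest, at 73089291 to 73091381, had ERα at 557, ERβ at 511 and mock at 478, and ERα was above mock at all 4. Single members stood at 360874 to 361419, with ERα at 90.2, ERβ at 61.1 and mock at 53.3, and at 132958481 to 132958896, with ERα at 45.5, ERβ at 32.1 and mock at 43.4. The 2 members on chromosome Y, at 1850066 to 1850863 and 1851783 to 1852796, scored 350 and 395 for ERα, 318 and 347 for ERβ, and 299 and 341 for mock. ERα was above mock at 9 of the 10 X loci, the ratios running from 0.579 to 2.42, and at both Y loci, by 1.17 and 1.16 times. Over all 703 loci the share was 63.4%. Of the 10 X loci, 8 lie in the groups of 4 and are not independent, and the X share was not tested against the rest.

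Other ERα peaks lay close to these loci too. Of the 231 ERα peaks touching ERβ but not mock, 92 (39.8%) lay within 10 kb of a member and 61 (26.4%, exact interval 20.8 to 32.6) inside the span of a cluster. For the 259 touching mock but not ERβ the numbers were 75 (29.0%) and 60 (23.2%, 18.2 to 28.8). For the 4154 touching neither, 91 (2.19%) lay within 10 kb and 61 (1.47%, 1.13 to 1.88) inside a cluster. The 3 classes also differed in median ERα score, with 45.3, 42.4 and 38.5 in that order. Among ERα peaks that were not members, a further ERα peak within 10 kb was more frequent from 50 to below 75 (39.1%) than below 40 (9.53%). Differences between the classes were not tested.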

How the data were processed

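One deposited peak list for each library was used, with chromosome, start, end, peak name and the authors' score, which has no unit in the lists. Reads were aligned with Bowtie 1.2, per the submitters' processing notes. The names of the peaks start with MACS, which is a peak caller. Its version, cutoff and control and the treatment of duplicate reads are not stated in the labels. A cutoff that differed between lists would change which loci appear in all 3.

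Lines were kept when positions were whole numbers and width was 1 to 20000 bp. Damaged positions removed 2 of 12730 ERβ lines, and 1 mock peak whose score was broken in the file entered by position only. At each ERα peak the highest score of the touching peaks was taken from each other list. Clusters were runs of 3 or more members with gaps of at most 100 kb. Intervals are 95% exact Clopper-Pearson for shares and exact order-statistic for medians. No hypothesis test was run. Functions were tested on simulated lists.

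The members and lists were chosen with earlier results of these data known. Named regions followed a rule: the 10 highest ERα scores, the 5 highest and lowest ratios to mock for each receptor, the 5 largest clusters, members on X, Y and the mitochondrial genome, and the 3 nearest the edge of the rule on each side. Further loci were named after their values were seen: the widest ones, the extreme joined loci, and the peak above 200 outside the set, together with the clusters of extreme ratio. Alternatives changed the overlap, score limits, list length, joining, choice of score, centring and cluster settings; one-to-one loci, joining for the named loci, leaving out the 3 largest clusters and keeping a damaged line were added after the data were seen. Software was matplotlib 3.10.9, scipy 1.17.1, pandas 2.3.3 and numpy 2.4.6 under Python 3.11.15.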

Additional observations from a re-analysis of the deposited data

Results flagged for a closer look

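At 3 of the named loci the ERα score was at least 1.5 times below mock while the ERβ score was at least 1.5 times above it. With 1 library for each antibody the difference was not tested. The log2 ratio of ERα to ERβ score was -4.99 at chromosome 1, 55737617 to 55738188, -4.08 at chromosome 1, 99095924 to 99096615, and -1.68 at chromosome X, 36450302 to 36451059. At the X locus, which had 1 peak in each list, the ERα score was 56.4, the ERβ score 180.8 and the mock score 97.4. At the first the ERβ peak also touched a further ERα peak of score 1163, and at the second one of score 591. Over all 703 loci this pattern stood at 11, and the opposite, ERα above and ERβ below mock by 1.5 times, at 6. A member's own ERα score is set against the highest ERβ score touching it. Some of the 11 shared that ERβ peak with a stronger ERα peak, so these counts do not compare the receptors. Another such case was chromosome 12 at 3354097 to 3354950, with ERα at 138. Its ERβ peak of 896 also touched an ERα peak of 556.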

How the results depend on the processing

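Of 65 values recomputed for the main results, 50 stayed within 1.5 times (number of loci) or within the interval of the reported value, and 15 moved further. A change of direction was looked for in the median log2 ratios alone, and 0 of those changed sign. The median log2 ratio to mock ranged from 0.17 to 0.28 for ERα, the highest with a reciprocal overlap of 50%, and from 0.13 to 0.20 for ERβ. That overlap also gave 76.9% of loci in clusters. Lists limited to scores of 50 or more held 451 such loci with a median width of 895 bp. At 100 or more they held 230, with a median width of 1124 bp, 72.6% in clusters, ERα above mock at 70.9% and ERβ at 64.3%. Joined loci had a median width of 1124 bp. The clustered share was 53.6% with gaps of at most 10 kb, 86.9% with gaps of at most 1 Mb and 65.9% with runs of 5 or more. Centring reduced the share at 1.5 times mock or more to 16.5% for ERα and 17.8% for ERβ. For 20 named ratios, joining changed the sign of 3: at chromosome 1, 55737617, ERα over mock became 0.71 on the log2 scale, at chromosome 1, 181078983, 0.061, and at chromosome 13, 33476535, ERβ over mock became 0.72, since another peak of the receptor in the joined locus then supplied the score. A further 8 moved by 1.5 times or more. Depth is unknown for every list, so nothing here separates a weak locus from a thinly sequenced one.
No paired analysis was possible because each antibody has 1 library.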
